A study of Mus musculus with 11 samples.

Results

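Tau, encoded by Mapt, and 4 further microtubule-associated protein genes, Map1a, Map1b, Map2 and Map4, were followed in the aorta of old male C57BL/6 mice. The members were the probes carrying these gene names, and Mapt was put on the list because 1 of its probes had a small P value in the comparison of nitrate with control, so its difference between the groups is a description and carries no test. The arrays name Mapt as such, and Map1a, Map1b, Map2 and Map4 by the older names Mtap1a, Mtap1b, Mtap2 and Mtap4, so 1 gene matched by its symbol and 4 by an older name. They are 5 of the 36413 names on the array and have 10 of its 55681 probes, of which 8, from 4 genes, were among the 23630 detected probes. Detection asked for a spot that the scanner software found, with signal well over background, on 5 or more arrays of 1 group. The 2 Map2 probes did not pass, being well above background on 0 of 5 nitrate arrays and 1 of 6 control arrays each.

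RNA came from the whole descending aorta, flushed and freed of outer fat, of 20-month-old mice. The old nitrate treated mice received 1 g/L sodium nitrate in drinking water for 8 weeks, and files of 5 of them were analysed, against 6 old control mice. The study's methods give sodium chloride to the controls, whereas the labels name no agent for them and call them a re-analysis of earlier samples, and whether both groups were collected together was not tested. Each mouse was measured on 1 one-color array, and all values below are log2 signals after quantile normalization over the 11 arrays unless said otherwise. The 75th percentile of the signal before normalization lay between 216 and 289 on nitrate arrays and between 213 and 282 on control arrays. The arrays correlated with each other at 0.982 to 0.995, no spot was saturated and no spot of the members was flagged. They lay on 3 slides that each held both groups, while all controls lay in position column 3, which held 0 nitrate arrays, so that column and treatment cannot be told apart.

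Microtubules are hollow polymers of alpha and beta tubulin that grow and shrink at their ends and serve as tracks for kinesin and dynein motors. Structural microtubule-associated proteins bind along the polymer and stabilize it. Tau and Map2 are relatives best known from neurons, tau in axons and Map2 in dendrites, while Map4 is the broadly expressed relative of both. Map1a and Map1b belong to another family, whose members are made as a precursor that is split into a heavy and a light chain. Binding of tau to microtubules is loosened by phosphorylation, and heavily phosphorylated tau accumulates in the tangles of Alzheimer disease.

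Mapt was measured by 3 probes, which lie on the plus strand of chromosome 11 in build mm9. Their sequences are shown because they place the 3 readings of Mapt along 1 transcript, and all are written 5′ to 3′ with the stop codon in capitals. Probe 1, A_55_P1954486, lies at chr11:104189430-104189489 and reads without a stop in 1 frame. Each of the 3 probes has 1 frame without a stop, so this alone does not mark coding sequence. Probe 2, A_55_P2100149, begins 66 bases further on at chr11:104189496-104189555 and holds a stop as codon 2 of the open frame of probe 1. Probe 3, A_55_P2100155, lies at chr11:104193241-104193300. Of probes 2 and 3, the first 30 of 60 bases are printed.
Mapt probe 1: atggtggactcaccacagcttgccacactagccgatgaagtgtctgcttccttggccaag
Mapt probe 2: ttgTGAtcaggctcccagggcagtcaataa
Mapt probe 3: atgatttctttggtgattttgagggtgggg

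From the stop in probe 2, in the open frame of probe 1, probe 1 was taken to read the end of the coding sequence. Probe 2 then reads the stop codon and the start of the 3′ untranslated region, and probe 3 a stretch further down that region. These placements were read from probe sequences and positions. The starts of probes 1 and 3 were 3811 bases apart both in the genome and in the annotated transcript, so no intron separated them in that annotation. Between probes 1 and 2 lay 6 bases and between probes 2 and 3 lay 3685 bases. All 3 are near or beyond the end of the coding sequence, so none of them distinguishes tau isoforms that differ in earlier exons.

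Signal of Mapt was lower in old nitrate treated mice with each of the 3 probes, by 36% to 39%. With probe 1 the 5 nitrate arrays read 9.26, 9.42, 9.43, 9.44 and 9.54, and the 6 control arrays 9.88, 10.24, 10.19, 10.00, 10.20 and 10.06. Every nitrate array was below every control, with a gap of 0.34 between the groups. The group means were 9.42 ± 0.10 (SD, n = 5) and 10.09 ± 0.14 (SD, n = 6), a difference of -0.67 (SE 0.07), or 37.3% less signal.

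With probe 2 the nitrate arrays read 9.40, 9.76, 9.82, 9.87 and 9.91, and the controls 10.27, 10.49, 10.52, 10.38, 10.70 and 10.49. The groups again did not overlap, with a gap of 0.36, and the first nitrate mouse stood clearly below the other nitrate mice. Means of 9.75 ± 0.20 (SD, n = 5) and 10.48 ± 0.14 (SD, n = 6) gave a difference of -0.72 (SE 0.11), or 39.4% less signal.

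With probe 3 the nitrate arrays read 7.52, 7.95, 7.83, 7.80 and 8.13, and the controls 8.20, 8.52, 8.62, 8.57, 8.69 and 8.27. This was the narrowest separation, with a gap of 0.07 between the highest nitrate array and the lowest control. Means of 7.84 ± 0.22 (SD, n = 5) and 8.48 ± 0.20 (SD, n = 6) gave a difference of -0.63 (SE 0.13), or 35.6% less signal. The 3 Mapt differences thus lay close together, between -0.72 and -0.63.

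**Figure D1:**
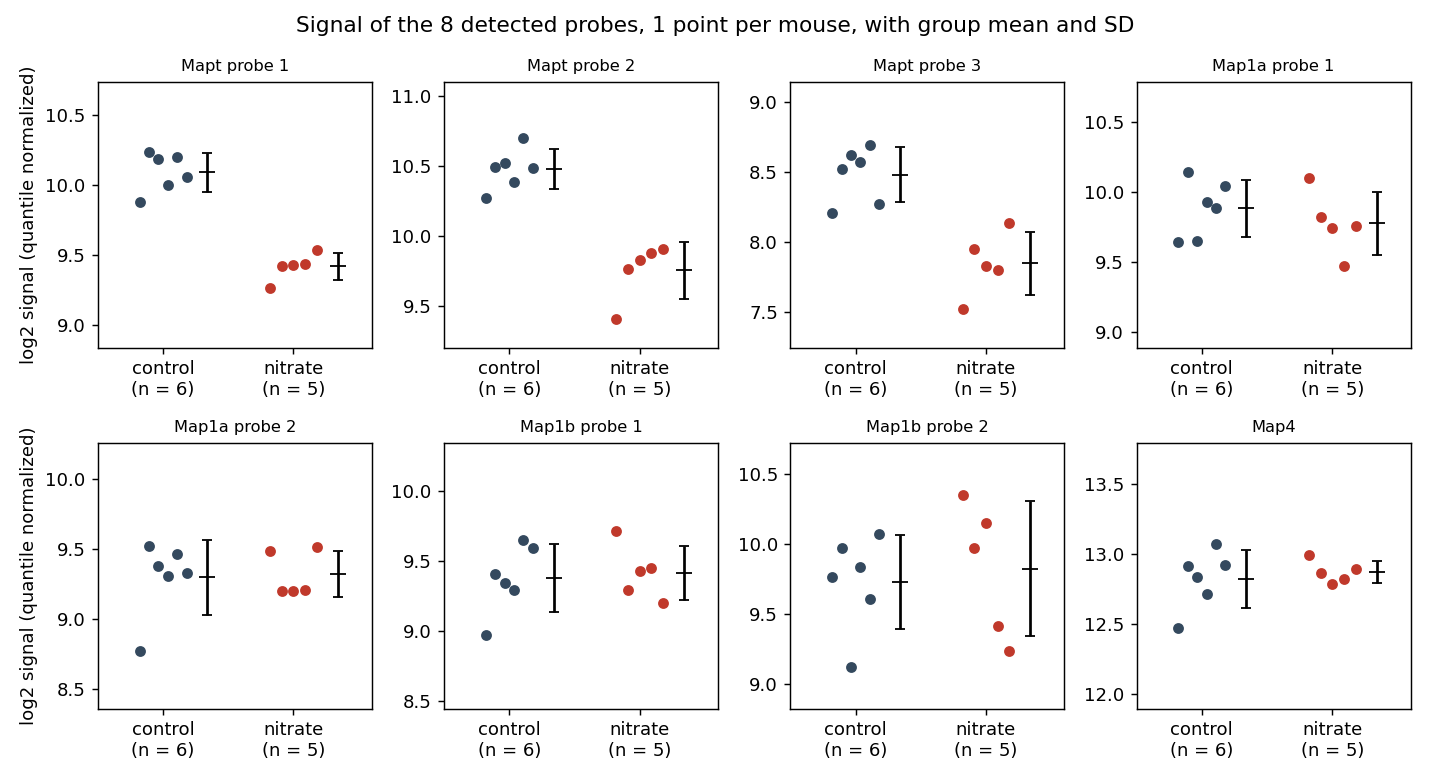
log2 signal of the 8 detected probes in 6 control mice (dark blue) and 5 nitrate treated mice (red), 1 point per mouse, with the group mean and SD as black bars; every panel spans the same number of log2 units. The groups are separate in the 3 Mapt panels and overlap in the 5 panels of Map1a, Map1b and Map4.

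The probes shared some of their extreme mice. Nitrate mouse 1 had the lowest and nitrate mouse 5 the highest reading of the nitrate group with all 3 probes, and control mouse 1 the lowest reading of the controls with all 3. The highest control was control mouse 2 with probe 1 and control mouse 5 with probes 2 and 3, and nitrate mice 2, 3 and 4 came in the opposite order with probe 3 than with probes 1 and 2. The ratio of 1 Mapt probe to another stayed similar. Probe 2 minus probe 1 was 0.33 ± 0.12 (SD, n = 5) in nitrate and 0.38 ± 0.08 (SD, n = 6) in control, and the ratios of probe 3 to probes 1 and 2 differed between the groups by 0.04 and 0.09. All 3 ratios overlapped between the groups, so no uneven change along the 3′ end of the transcript was detectable.

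**Figure D2:**
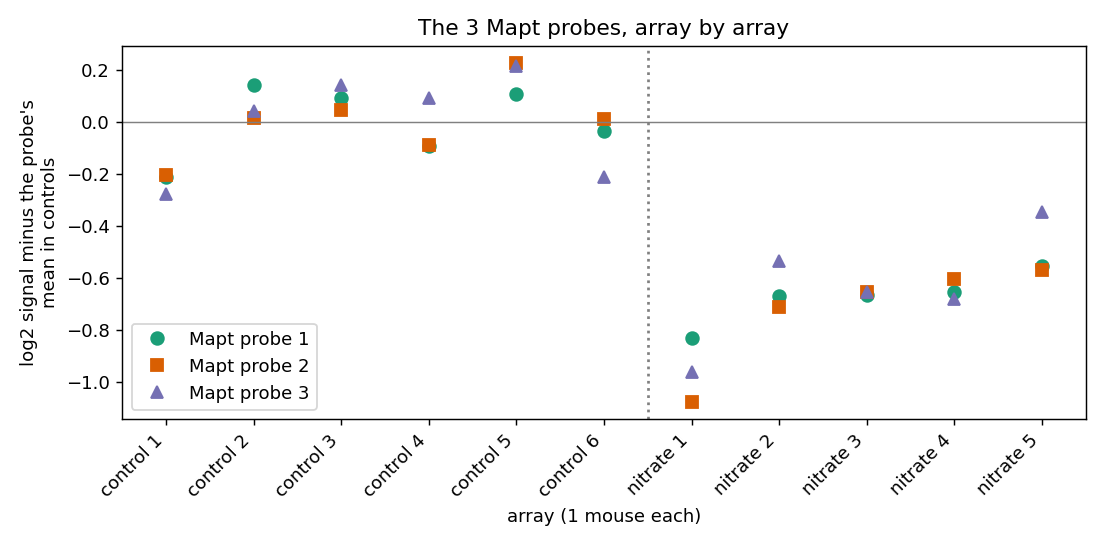
The 3 Mapt probes on each of the 11 arrays, as log2 signal minus that probe's mean over the 6 controls (zero line); the dotted line parts control from nitrate arrays. Nitrate 1 is lowest and control 1 is the lowest control with each of the 3 probes.

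Before normalization between arrays the groups were less clearly apart. The processed signal of Mapt probe 2 ran from 657 to 1149 on nitrate arrays and from 1088 to 1844 on control arrays, so nitrate mouse 5 was above control mouse 1. Under 25 other ways of treating the values, the difference stayed between -0.72 and -0.60 for probe 1, between -0.80 and -0.61 for probe 2 and between -0.71 and -0.50 for probe 3. Within slides 1, 2 and 3 the difference of probe 2 was -0.80, -0.61 and -0.72. Slides 1 and 3 held 2 mice of each group, and slide 2 held 1 nitrate mouse and 2 controls.

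Map1a, which encodes a protein of mature neurons and of several other tissues, was measured by 2 probes on chromosome 2. With probe 1, A_66_P140452, the nitrate arrays read 10.10, 9.83, 9.75, 9.47 and 9.75, and the controls 9.64, 10.14, 9.65, 9.93, 9.89 and 10.05. The groups overlapped, at 9.78 ± 0.23 (SD, n = 5) and 9.88 ± 0.20 (SD, n = 6), with a difference of -0.10 (SE 0.13). With probe 2, A_55_P2157966, the nitrate arrays read 9.49, 9.20, 9.20, 9.21 and 9.52, and the controls 8.77, 9.53, 9.38, 9.31, 9.47 and 9.33. Control mouse 1 was far below all others here, and the difference was 0.03 (SE 0.14). The 2 probes thus differed in sign, and each difference was smaller than its standard error.

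Map1b, the family member prominent in growing axons, was measured by 2 probes on chromosome 13. With probe 1, A_55_P1964193, the nitrate arrays read 9.71, 9.29, 9.43, 9.45 and 9.20, and the controls 8.97, 9.41, 9.34, 9.29, 9.65 and 9.59. The groups overlapped and the difference was 0.04 (SE 0.13). With probe 2, A_52_P360330, the nitrate arrays read 10.35, 9.97, 10.15, 9.41 and 9.23, and the controls 9.76, 9.97, 9.12, 9.84, 9.61 and 10.07. This probe had the widest spread of the 8, with an SD of 0.48 in nitrate and 0.34 in control, and the difference was 0.10 (SE 0.25). Within slides, Map1b probe 1 read 0.31 higher in nitrate on slide 1 and 0.17 lower on slide 3.

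Map4 was measured by a single probe, A_55_P2053444, on chromosome 9. The nitrate arrays read 12.99, 12.87, 12.79, 12.82 and 12.89, and the controls 12.47, 12.91, 12.83, 12.72, 13.07 and 12.92. All nitrate values lay within the range of the controls, and the difference was 0.05 (SE 0.10). The SD was 0.08 in nitrate and 0.21 in control, where control mouse 1 was again the lowest. Its difference was 0.24 on slide 1, -0.03 on slide 2 and -0.10 on slide 3.

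Map2, a close relative of tau, was near background with both of its probes on chromosome 1, so no level or fold is given. A further probe that the array describes as a Map2 transcript was well above background on 0 arrays of either group.

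**Figure D3:**
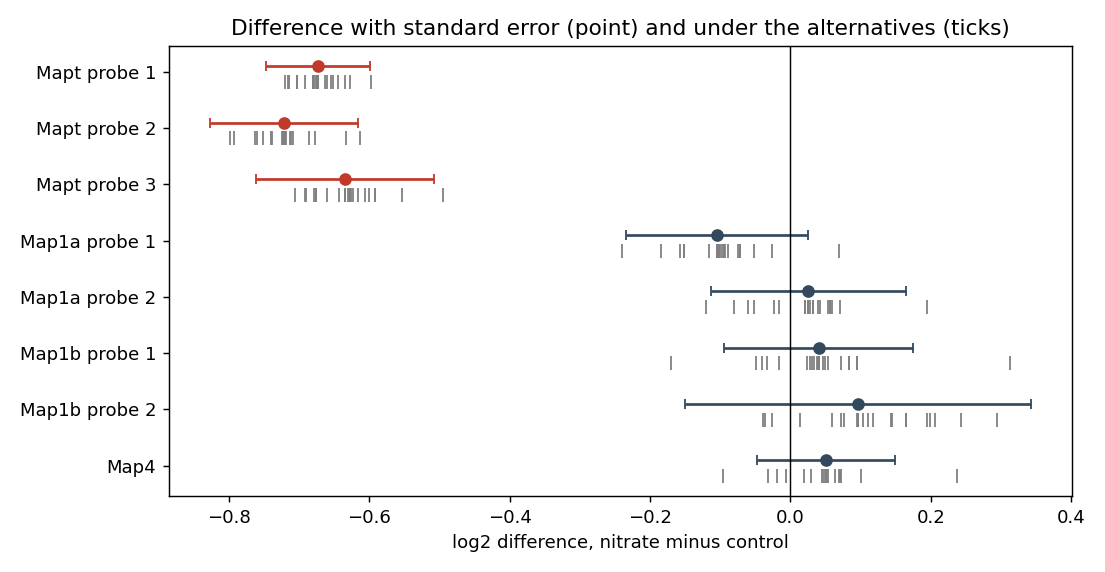
log2 difference, nitrate minus control, of the 8 detected probes (points, with standard errors as bars) and the same difference under each of the alternative treatments of the values (grey ticks). The ticks of the 3 Mapt probes lie at or below -0.50, while those of Map1a, Map1b and Map4 fall on both sides of 0.

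By the thresholds of the study, a fold change over 1.2 and a limma P value, not adjusted, below 0.05, 3 of the 8 detected probes were lower in nitrate and 0 were higher. Of all detected probes 4.85% were lower and 4.16% higher by these thresholds, and on 1.14% every nitrate array lay below every control. The 3 probes are those of Mapt, which was chosen on this contrast, so the count carries no further weight. It was 3 under each of the 22 alternatives that gave a count.

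How the probes moved from mouse to mouse within a group was not used to choose them and could be tested. Deviations from the group mean were correlated over the 11 arrays for 11 pairs of probes, with exact permutation within the groups and Benjamini-Hochberg adjustment over the 11 pairs. Mapt probes 1 and 2 deviated together, at r = 0.83 and rho = 0.81 (two-sided exact permutation P = 0.00104 for r and 0.00299 for rho, adjusted P = 0.0114 for r). Mapt probes 1 and 3 had r = 0.79 and rho = 0.70 (exact permutation P = 0.00755 and 0.025, adjusted P = 0.0392). Mapt probes 2 and 3 had r = 0.78 and rho = 0.65 (exact permutation P = 0.0107 and 0.0429, adjusted P = 0.0392).

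Nitrate mouse 1 and control mouse 1 lay farthest from the median in all 3 Mapt pairs. Without these 2 arrays r fell to 0.66, 0.54 and 0.40, so the relation rests in part on them. Leaving out either array alone left 0 of the 11 pairs below an adjusted P of 0.05, against 4 with all arrays.

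The 2 probes of Map1a had r = 0.58 and rho = 0.45 (exact permutation P = 0.0746 and 0.192, adjusted P = 0.137), and r = 0.38 without control mice 1 and 2. The 2 probes of Map1b had r = 0.36 and rho = 0.44 (exact permutation P = 0.28 and 0.21, adjusted P = 0.342), and r = 0.23 without control mouse 3 and nitrate mouse 5.

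These values changed when slide was removed from each probe along with the group mean, which left 7 residual degrees of freedom. The 3 Mapt pairs then had r = 0.78 (probes 1 and 2), 0.69 (probes 1 and 3) and 0.63 (probes 2 and 3). The probe pair of Map1a reached r = 0.95 and that of Map1b r = 0.92, against 0.58 and 0.36 with the group mean alone removed. Orders of the arrays within each group on each slide number 32, with 0.0312 as the smallest exact permutation P they can give. The Mapt pair of probes 1 and 2, the Map1a pair and the Map1b pair were at that limit (adjusted P = 0.0858 each). So was the brightest Map1a probe with the Map4 probe (adjusted P = 0.0858), at r = 0.91 against 0.56 with the group mean alone removed. The other 2 Mapt pairs had exact permutation P = 0.156 and 0.281, and of all 11 pairs 0 passed after adjustment.

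Between genes, the brightest probes of Map1a and Map1b deviated together, at r = 0.72 and rho = 0.72 (exact permutation P = 0.0168 and 0.0222, adjusted P = 0.0462), and at r = 0.57 without nitrate mice 4 and 1. That call was close to the threshold and passed in 3 of 13 alternatives. With 75th percentile scaling r was 0.65 at an adjusted exact permutation P of 0.101, and 9 of the 11 single arrays ended the call when left out. With slide removed r was 0.61 (exact permutation P = 0.0938, adjusted P = 0.172). Mapt did not pass the adjusted threshold with any of the other 3 genes. Its r was -0.34 with Map1a, -0.58 with Map1b and 0.35 with Map4, at adjusted exact permutation P values of 0.351, 0.14 and 0.342. With slide removed these were 0.08, -0.01 and 0.23, and without nitrate mouse 1 and control mouse 1 they were -0.27, -0.46 and 0.81. The value with Map4 was 0.01 without control mouse 1 alone and 0.89 without nitrate mouse 1 alone. The value with Map4 combines unlike relations, since r was 0.94 over the 6 controls and negative over the 5 nitrate mice, which are too few for a value of their own. With Map1a the sign also differed between the groups. These differences between the groups were not tested.

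The genes whose deviations from the group mean were most like those of Mapt probe 2 were searched among 17386 detected probes that carry a gene symbol. They were Reps2 (r = 0.96), A330050B17Rik (r = 0.95), Fam174a (r = 0.95), 1500015O10Rik (r = 0.94) and Gm6913 (r = 0.92), over 11 arrays that share normalization. As the highest of 17386 values with a single probe, they carry no test. Each exceeds the r of probe 2 with Mapt probes 1 and 3, at 0.83 and 0.78. The median r of all candidates was 0.02 and the upper 2.5% began at 0.74. Reps2, which encodes a protein of receptor endocytosis, had a difference between nitrate and control of -0.16 (SE 0.19), and none of the 5 genes passed the thresholds of the study.

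To see whether other genes of the microtubule system moved, 6 lists with 177 genes were examined, with 1 probe per gene. Of these 176 were on the array and 139 were detected. By the thresholds of the study 5 genes were higher and 3 lower in nitrate, against 4.27% higher and 4.62% lower among the 18293 detected names taken with 1 probe each. At a Benjamini-Hochberg adjusted P value under 0.05 in limma the count was 0 of 139, the smallest being 0.152. With any detected probe of a gene, Abl1 and Svbp were also called higher and Kif3a lower, each with a probe that was not the brightest of its gene. The 3 genes called lower, Ppp2r1b, Tppp and Kif21a, were called in at least 21 of 22 alternatives, while of the 5 called higher Dctn6 was called in 20, Clip4 in 19, Mapre2 in 17, Map7d2 in 13 and Map7 in 11. Without control mouse 1 or without nitrate mouse 4, 1 gene remained called higher, and without both the count was 0. Without control mouse 2 the count was 2. Control mouse 1 and nitrate mouse 4 had the highest signal of heart and striated muscle genes. Whether that signal bears on the calls was not tested.

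Among 23 detected genes of other structural microtubule-associated proteins, 2 were higher and 1 lower, with a median difference of 0.09 against 0.02 over all detected names. Map7, which links microtubules to kinesin, read 6.00 ± 0.20 (SD, n = 5) in nitrate and 5.67 ± 0.28 (SD, n = 6) in control, a difference of 0.34 (SE 0.15, limma adjusted P = 0.317). Another Map7 probe differed by 0.25 (SE 0.13) and did not pass. Map7d2, a relative of Map7, differed by 0.29 (SE 0.13, limma adjusted P = 0.319). Tppp, whose product promotes tubulin polymerization and is known from oligodendrocytes, read 7.71 ± 0.10 (SD, n = 5) and 8.01 ± 0.18 (SD, n = 6), a difference of -0.30 (SE 0.09, limma adjusted P = 0.215). Map1s, the third gene of the Map1 family, differed by -0.02 (SE 0.07), and Map6, which protects microtubules from cold, by 0.14 (SE 0.08) with 1 probe and -0.13 (SE 0.07) with the other. The autophagy proteins Map1lc3a and Map1lc3b, named for their copurification with Map1 proteins, differed by -0.12 (SE 0.09) and -0.07 (SE 0.03).

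Among 30 detected tau kinases and phosphatases, 0 were higher and 1 lower by the brightest probe, with a median of -0.01. The lower gene was Ppp2r1b, a scaffold subunit of protein phosphatase 2A, the main enzyme that removes phosphate from tau. It read 5.99 ± 0.13 (SD, n = 5) in nitrate and 6.41 ± 0.19 (SD, n = 6) in control without overlap, a difference of -0.42 (SE 0.10, limma adjusted P = 0.152). The other scaffold gene, Ppp2r1a, differed by -0.15 (SE 0.12) and the catalytic subunit Ppp2ca by -0.10 (SE 0.02) with 1 probe and 0.07 (SE 0.08) with the other. Of the kinases best known to act on tau, Gsk3b differed by 0.00 (SE 0.05), Cdk5 by 0.08 (SE 0.08) and its activator Cdk5r1 by -0.11 (SE 0.08) with 1 probe and 0.11 (SE 0.08) with the other. None of these 5 genes passed the thresholds with any probe. The tau kinase Abl1 differed by 0.09 (SE 0.08) with its brightest probe and by 0.34 (SE 0.12, limma adjusted P = 0.26) with another, which passed.

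Of 14 detected tubulins, 0 passed in either direction, with a median of 0.07. Tuba1a differed by 0.15 (SE 0.13) and Tubb5 by 0.15 (SE 0.06), while Tubb3, a tubulin used as a neuronal marker, differed by 0.21 (SE 0.21). Of 20 detected genes of tubulin folding and modification, 0 passed by the brightest probe, with a median of 0.01. Svbp, the partner of the vasohibin detyrosinating enzymes, differed by 0.22 (SE 0.04) with that probe, under the fold threshold, and by 0.48 (SE 0.24, limma adjusted P = 0.34) with another, which passed. The deacetylase Hdac6 differed by 0.09 (SE 0.07) and the acetyltransferase Atat1 by -0.11 (SE 0.10).

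Of 21 detected plus-end, severing and stathmin genes, 2 were higher and 0 lower, with a median of 0.02. Clip4 read 8.96 ± 0.13 (SD, n = 5) and 8.65 ± 0.12 (SD, n = 6), a difference of 0.30 (SE 0.07, limma adjusted P = 0.17), and 2 of its 3 detected probes passed. Mapre2, an end-binding protein, differed by 0.27 (SE 0.09, limma adjusted P = 0.267) with its brightest probe and by 0.10 (SE 0.12) with another, which did not pass. Of 31 detected motor genes, 1 was higher and 1 lower, with a median of 0.02. Dctn6, a dynactin subunit, was higher by 0.27 (SE 0.09, limma adjusted P = 0.246) without overlap, and the kinesin Kif21a, which dampens microtubule growth, had a difference of -0.47 (SE 0.17, limma adjusted P = 0.246).

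**Figure D4:**
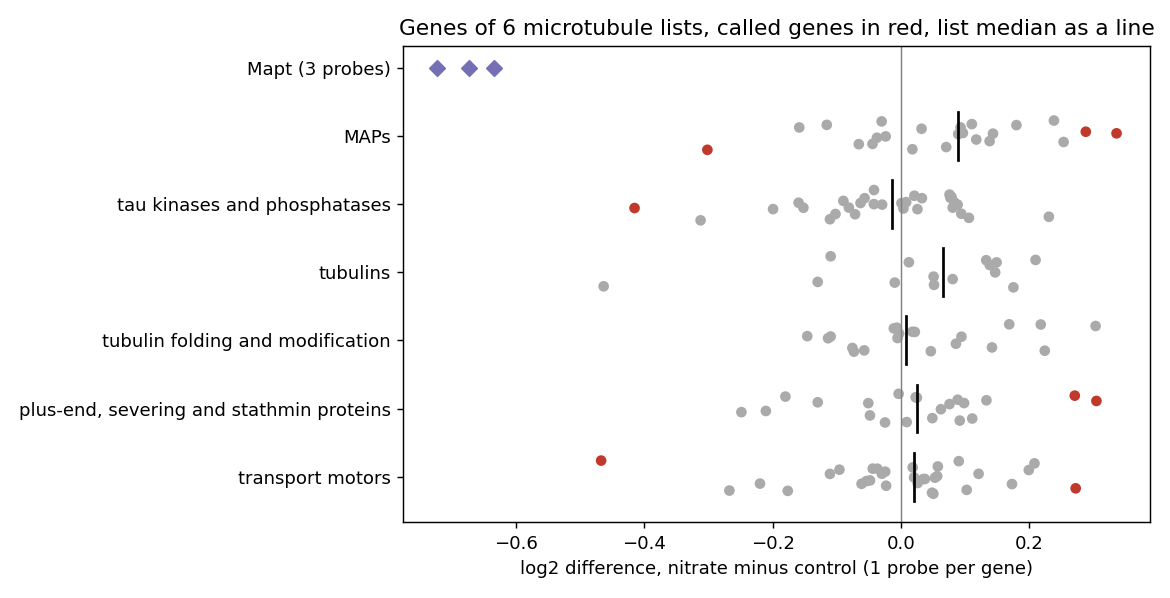
log2 difference, nitrate minus control, of each detected gene of 6 microtubule lists (points, 1 probe per gene; red points passed the fold change and P value thresholds of the study; black lines are list medians), with the 3 Mapt probes as diamonds above. The list medians lie between -0.01 and 0.09, and no listed gene reaches the values of Mapt.

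The aorta holds several cell types, and fewer cells of a type cannot be told apart from less RNA per cell. Smooth muscle, endothelial, macrophage and fibroblast markers were detected in full (10 of 10, 10 of 10, 8 of 8 and 8 of 8). Their differences without regard to the test were above 0 for 8 of 8 fibroblast markers (median 0.16), 9 of 10 smooth muscle markers (median 0.13), 7 of 8 macrophage markers (median 0.11) and 4 of 10 endothelial markers (median -0.10), and Lmod1, at 0.31 (SE 0.12, limma adjusted P = 0.285), was the 1 marker of the 4 lists that was called. Of 16 neuron markers 4 were detected (Snap25, Syn1, Uchl1 and Elavl4), while Rbfox3, the neurofilament genes Nefl, Nefm and Nefh, Prph and the sympathetic markers Th and Dbh were not. Their summed signal on the linear scale ran from 19486 to 29463 in nitrate and from 19173 to 27321 in control and overlapped, but Snap25 alone made up at least 91.4% of it on every array. Without Snap25 the sums were 1336 to 1965 in nitrate and 1320 to 1657 in control. Snap25 differed by 0.04 (SE 0.14), Uchl1 by 0.14 (SE 0.14) and Elavl4 by -0.10 (SE 0.45), and 1 of the 4, Syn1, was called, by 0.38 (SE 0.08, limma adjusted P = 0.138) higher in nitrate. Schwann cell markers were detected for 7 of 12, with sums of 3089 to 4558 in nitrate and 3470 to 4523 in control. Mbp, a myelin gene, was the 1 called lower, with a difference of -0.46 (SE 0.22, limma adjusted P = 0.329).

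Most adipocyte markers read lower in nitrate, as Mapt did. All 18 were detected, and 17 differed by less than 0 and 1, Plin4, by 0.09 (SE 0.10). By the thresholds of the study 10 were called lower and 0 higher, against 4.62% lower among all detected names, and 0 had an adjusted P value under 0.05. The median difference was -0.40. Pparg, the master regulator of fat cells, differed by -0.57 (SE 0.14, limma adjusted P = 0.13), Adipoq by -0.49 (SE 0.11, limma adjusted P = 0.13) and Cebpa by -0.68 (SE 0.13, limma adjusted P = 0.0938), while the droplet protein gene Plin1 differed by -0.24 (SE 0.15) and did not pass.

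The summed adipocyte signal ran from 413533 to 558789 in nitrate and from 534411 to 738945 in control, with overlap between nitrate mouse 4 and control mouse 6. Nitrate mouse 1 had the lowest sum and the lowest Mapt of the nitrate group. Control mouse 1 was second only to control mouse 3 in this sum and had the lowest Mapt of the controls, and nitrate mouse 4 had more adipocyte signal than control mouse 6 but less Mapt than every control. The part of adipocyte RNA in the Mapt difference was not tested.

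**Figure D5:**
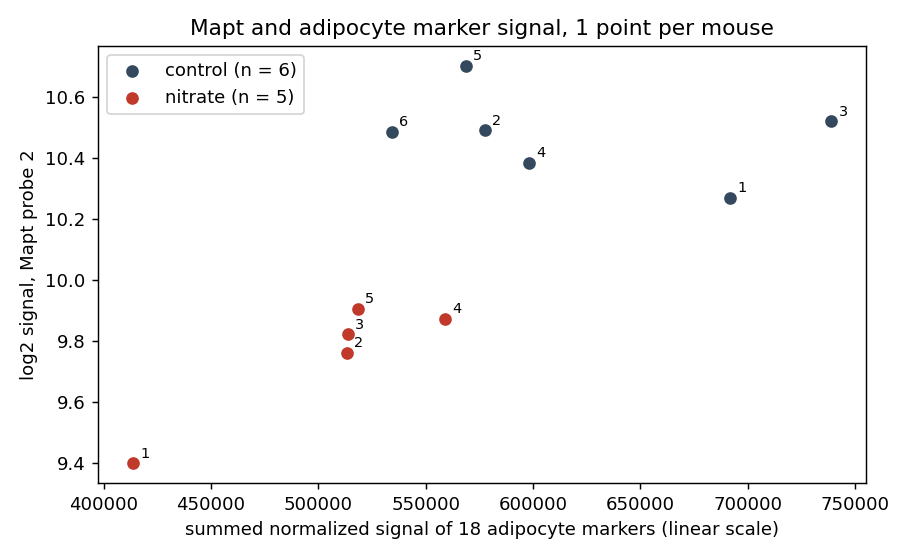
log2 signal of Mapt probe 2 against the summed normalized signal of 18 adipocyte markers (linear scale) in 6 control mice (dark blue) and 5 nitrate treated mice (red), with the replicate number beside each point. The adipocyte sums of nitrate 4 and control 6 overlap, while the Mapt values of the groups do not.

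Heart and striated muscle markers were detected for 11 of 14, and their sums were highest in nitrate mouse 4, at 84711, and control mouse 1, at 56521, against 17685 to 21074 in the other nitrate mice and 10784 to 18324 in the other controls. Of the 11 markers 8 differed by more than 0, with a median of 0.54, and 0 were called. Without these 2 mice the Mapt differences were -0.72, -0.79 and -0.68 with probes 1, 2 and 3, against -0.67, -0.72 and -0.63 with all arrays. The part of striated muscle RNA in the Mapt difference was not tested.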

How the data were processed

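RNA of 5 nitrate and 6 control aortas was measured on one-color arrays. The authors deposited spot intensities and flags from Feature Extraction 10.7.1.1 (background-subtracted, not normalized between arrays) and a table of log2 values, which matched the quantile normalized values of each array after centring. All columns of that table were matched to a sample.

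The processed intensity was raised to at least 1, put on the log2 scale without outlier-flagged spots, averaged over the spots of a probe and quantile normalized. The groups were compared over all 11 arrays with limma 3.58.1 (lmFit, eBayes) in R 4.3.3, with Benjamini-Hochberg adjustment over all detected probes. A list gene was represented by its brightest detected probe. Correlations of deviations from the group means were tested over all 86400 orders of the arrays within groups. The limma P values set a group difference against the spread between mice, moderated over all detected probes. The permutation P values set a correlation against reordered arrays.

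The 5 genes, the lists and the markers were chosen with earlier results of these data known. Named were every probe of the 5 genes, called list genes (at most 4 in each direction), and the 5 genes closest to Mapt. Further list and marker genes were named after their values were seen. Alternatives covered 75th percentile scaling, normexp (offset 50), an offset of 16, the deposited log2 table, flagged spots, detection rules, the prior variance, slide and replicate blocks, the choice of probe and each array left out. Leaving out control 1 with nitrate 4, and removing slide from the correlations, were chosen after seeing the data. Positions are in mm9. Older names were matched through a RefSeq table of GRCm38. The number of arrays limits precision.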

Additional observations from a re-analysis of the deposited data

Results flagged for a closer look

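Within groups of 5 or 6 mice, 5 readings among 42 groups tested lay far from the rest, judged by the gap to the nearest mouse as a share of the group's range. Chance flags about 1 in 20 independent groups, but these share the same arrays, and Gm6913 was chosen for following Mapt probe 2, so no expected number is given. Nitrate mouse 1 was low for Mapt probe A_55_P2100149 (share 0.716) and for Gm6913 (0.777). Control mouse 1 was low for Map1a probe A_55_P2157966 (0.715) and for Dctn6 (0.693), and high for Kif21a (0.668). No explanation was tested.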

How the results depend on the processing

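The 3 Mapt probes kept their direction under all 25 alternatives and were called in the 22 that gave calls, while each probe of Map1a, Map1b and Map4 was on both sides of 0 and was called in 0 of these 22. Mapt was chosen on this contrast and the alternatives reuse the same arrays, so its calls lend no separate support. Counts of microtubule list genes, 5 higher and 3 lower with the main treatment, changed between alternatives. They were 2 and 1 with normexp, 9 higher without a detection filter, 5 lower with slide as a block, and 0 and 5 without control 1 and nitrate 4. With each array left out in turn, 1 to 7 genes were called higher (1 without control 1 or nitrate 4, 2 without control 2) and 3 to 5 lower (5 without nitrate 4 or control 6), and 0 to 4 of the 11 probe pairs covaried. That number was 0 without nitrate 1 or control 1, 1 without nitrate 2, control 3 or control 5, and 2 without nitrate 5 or control 2. Fewer arrays also allow fewer orders, but without control 2 Mapt probes 1 and 2 still reached an adjusted exact permutation P of 0.000763. The count was 3 with 75th percentile scaling, where the pair of Map1a and Map1b was lost. With each array left out, r lay between -0.63 and 0.15 for Mapt with Map1a and between -0.077 and 0.16 for Map1b with Map4, and both changed sign without nitrate 1. With slide removed, r was 0.077 for Mapt with Map1a and 0.75 for Map1b with Map4, the latter against 0.07 with the group mean alone removed. Neither pair passed (adjusted exact permutation P = 0.893 and 0.138). With any detected probe of a gene, 11 list genes were called, 3 more than by the brightest probe. Within single slides no counts were made.

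Mice with the same replicate number did not deviate together (correlations of -0.14 to 0.18), and 1 of the 5 numbers, replicate 2, matched best with itself. With a replicate block the Mapt differences were -0.68, -0.72 and -0.68, and 5 list genes were higher and 4 lower.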
